A study of Mus musculus with 24 samples.

Results

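The genes described here are 9 genes of B cells and of the antibody-secreting cells that B cells become: Igkc, Ighm, Ighg2b, Ighg2c, Iglc2, Jchain, Cd79a, Cd79b and Mzb1. They were taken as the rows of the deposited count table whose Ensembl gene ID maps to one of these symbols, and all 9 were found among the 55401 gene IDs of the table. The libraries were made from bilateral punches of the mouse nucleus accumbens, a ventral striatal region of the brain's reward circuit. The mice, C57BL/6J or DBA/2J and 8 to 9 weeks old, underwent sham surgery or the tibial form of spared nerve injury (SNI), in which branches of the left sciatic nerve are cut to model neuropathic pain. All had received an adeno-associated virus of serotype 8 (AAV8) in the accumbens on both sides. Its neuronal hSyn promoter drove either Egfp alone (Gfp) or Mef2c together with Egfp (Mef2c), so every group, controls included, carries a viral vector. Surgery and vector give 4 groups of 6 libraries, 2 with the Gfp vector (Sham Gfp and SNI Gfp) and 2 with the Mef2c vector (Sham Mef2c and SNI Mef2c), and a library is named here by its group and its replicate number. The labels do not say which strain or which mice gave a library, so a p-value measures the spread between these libraries.

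An antibody is built from paired heavy and light chains, each with a variable end that binds antigen and a constant part. B cells first make the heavy chain mu, and later switch to gamma, alpha or epsilon classes. CD79A and CD79B are the signalling pair of the B cell receptor, the membrane-bound antibody. Plasma cells lose that receptor complex and secrete large amounts of antibody, and the J chain links secreted IgA or IgM into larger units. B lineage cells are rare in healthy brain tissue and lie mostly at its borders, the meninges and the choroid plexus. In bulk tissue, fewer cells of a type and less RNA per cell cannot be told apart.

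Total counts lay between 25477019 and 36570108 per library. Levels are given as raw counts or as CPM, the share of a library's counts scaled up after TMM normalization. For Mef2c, the gene in the vector, the mean of Sham Gfp was 169 CPM (SD 25.9, n = 6) and that of SNI Mef2c was 611 CPM (SD 146, n = 6). In the libraries labelled Sham Mef2c it averaged 243 CPM (SD 128, n = 6), and libraries 2 and 5 of that group, at 125 and 123 CPM, were under all Sham Gfp libraries, which started at 139 CPM. The sample index in the labels runs in 1 block per group, so an order of preparation that followed it and the groups cannot be told apart. Striatal neuron markers (Drd1, Drd2, Adora2a and others) were present in every library, with a summed level of 1876 CPM or more. SNI Gfp 6 had 899 CPM of choroid plexus markers, against 9.3 to 70.5 CPM in the other libraries, and SNI Gfp 4 and SNI Mef2c 1 had 752 and 1514 CPM of cortical neuron markers.

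Antibody RNA was abundant in all 6 Sham Gfp libraries, in SNI Gfp 4 and 6 and in Sham Mef2c 6, and near 0 in the other libraries. The summed level of the 9 genes ranged from 84.0 to 1030 CPM in Sham Gfp, with a median of 219 CPM. It was 261 CPM in Sham Mef2c 6 and 8.67 to 13.8 CPM in the other 5 libraries labelled Sham Mef2c. It was 287 CPM in SNI Gfp 4, 748 CPM in SNI Gfp 6 and 10.4 to 12.7 CPM in the other 4 SNI Gfp libraries. In SNI Mef2c it stayed between 7.97 and 18.2 CPM. The group means of Igkc, Ighg2b, Ighg2c and Jchain therefore rest mostly on 1 library in Sham Mef2c and on 2 in SNI Gfp, whereas Ighm and Cd79a were alike in all 6 Sham Mef2c libraries.

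**Figure D1:**
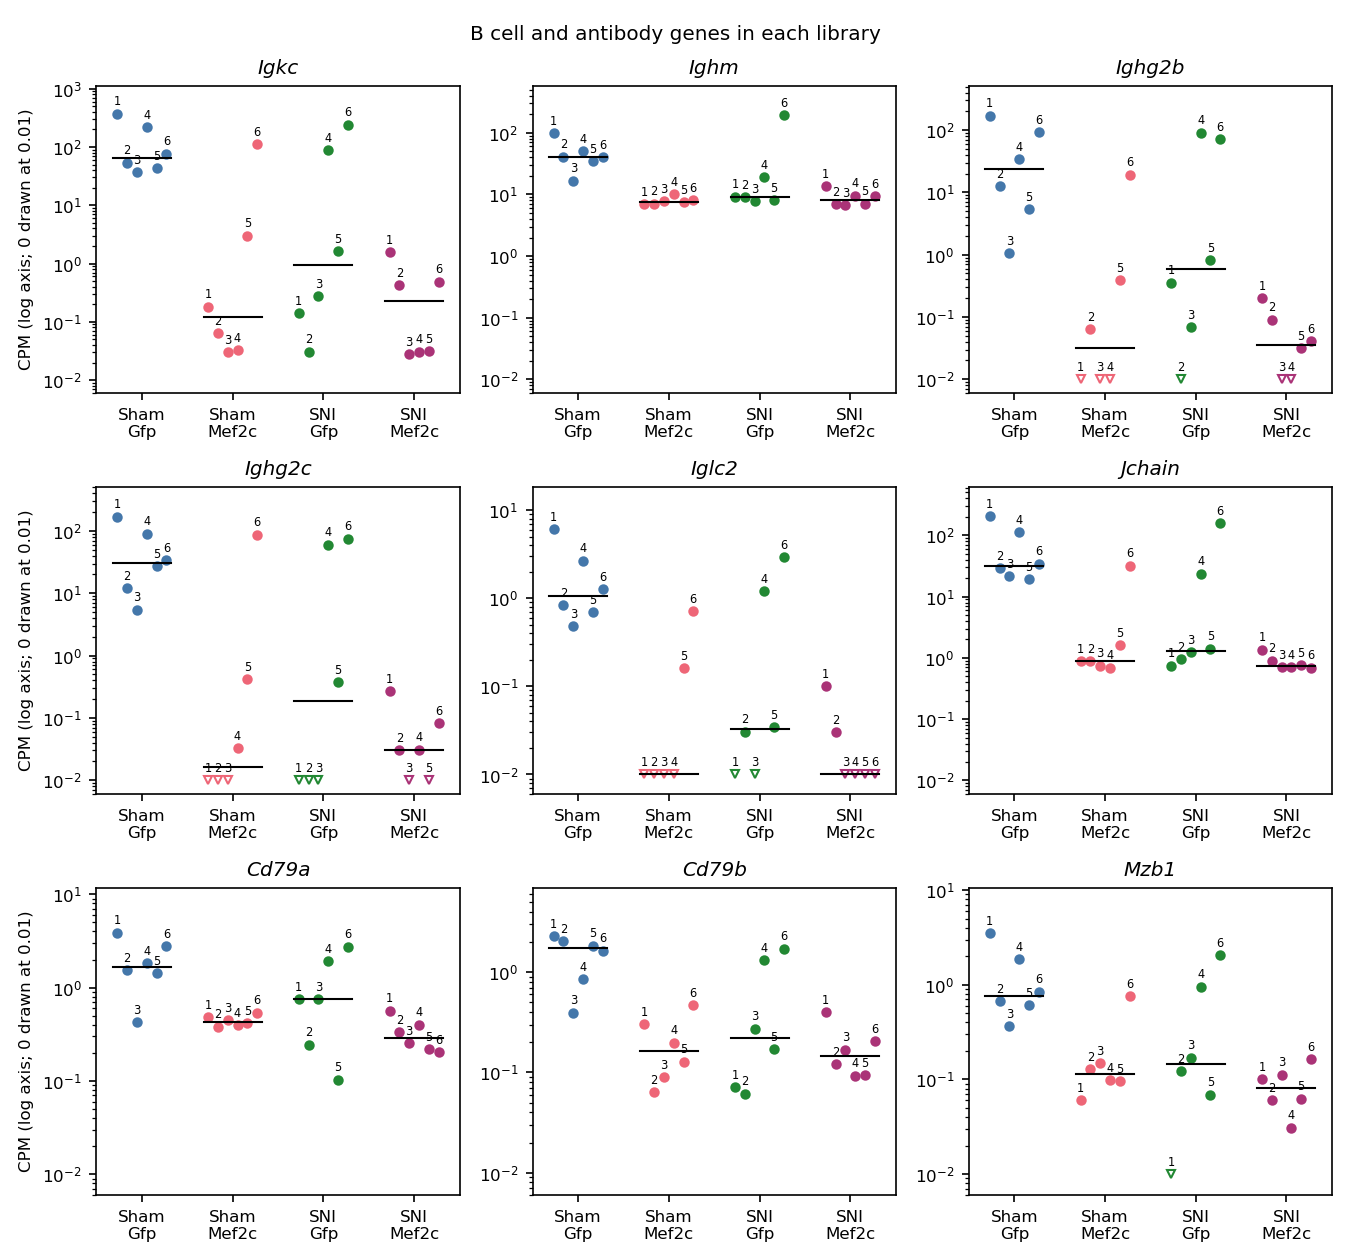
Level of each of the 9 genes in the 24 libraries, in CPM on a log axis, with libraries at 0 drawn as open triangles at 0.01. Numbers are replicate numbers and black lines are group medians. All 6 Sham Gfp libraries, SNI Gfp 4 and 6 and Sham Mef2c 6 stand high for Igkc and Jchain, whereas Ighm and Cd79a of Sham Mef2c 6 lie with the low libraries of its group.

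Igkc encodes the constant part of the kappa light chain (chr6:70726435-70726966, plus strand, mm10). Its counts in Sham Gfp were 11643, 1685, 1240, 6483, 1432 and 2713 in libraries 1 to 6. In the libraries labelled Sham Mef2c they were 6, 2, 1, 1, 94 and 3132. In SNI Gfp they were 4, 1, 8, 3238, 47 and 8688, and in SNI Mef2c 47, 14, 1, 1, 1 and 12. Kappa RNA thus filled every Sham Gfp library, 1 of 6 libraries labelled Sham Mef2c and 2 of 6 SNI Gfp libraries, and was at 47 counts or fewer throughout SNI Mef2c. Igkc lies inside the span of the predicted gene Gm30211, whose 42093 counts over all libraries hardly exceed the 40494 of Igkc, so the pair shares its reads.

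Iglc2 encodes a lambda light chain constant part (chr16:19198396-19200351, minus strand). It had 192, 26, 16, 79, 23 and 45 counts in Sham Gfp, 20 in Sham Mef2c 6, 44 in SNI Gfp 4 and 105 in SNI Gfp 6, and 0 to 5 counts in every other library. Kappa took 96.6% to 99.1% of kappa and lambda constant-region counts in those 9 libraries. The high value was that of Sham Mef2c 6 (95% Wilson interval 98.6% to 99.3%), where the interval covers counting error only. The neighbouring lambda genes Iglc1 and Iglc3 are copies of the same unit. Iglc2 and Iglc3 are identical at 301 of 312 aligned coding bases, with a longest shared run of 79 bases, so short reads can fit both and their counts are uncertain. Iglc2 and Iglc1 are identical at 235 of 310 aligned bases. The first 110 aligned bases of Iglc2 (chr16:19198741-19198850) and Iglc3 (chr16:19065570-19065679), both on the minus strand of GENCODE M21 on GRCm38, are shown for this reason, with the 7 differing bases in capitals.
Iglc2: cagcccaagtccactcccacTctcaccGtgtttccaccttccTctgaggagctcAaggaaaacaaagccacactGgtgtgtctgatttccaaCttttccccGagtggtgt
Iglc3: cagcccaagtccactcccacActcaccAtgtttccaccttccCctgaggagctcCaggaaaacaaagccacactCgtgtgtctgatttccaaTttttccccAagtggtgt

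Among the heavy chains, Ighm, the mu chain of unswitched B cells and of IgM (chr12:113418558-113422730, minus strand), had 3077, 1285, 557, 1482, 1152 and 1410 counts in Sham Gfp. SNI Gfp 6 had 6842 counts and SNI Gfp 4 had 693. All 6 libraries labelled Sham Mef2c held 222 to 304 counts, below every Sham Gfp library, and SNI Mef2c held 226 to 409. Ighm differed from Igkc in 2 ways. It kept more than 220 counts in libraries with 1 Igkc count, such as Sham Mef2c 3 with 258, and in Sham Mef2c 6, where Igkc reached 3132 counts, Ighm stayed at 224.

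Ighg2b and Ighg2c encode gamma chains of switched IgG. Ighg2c is the form carried by C57BL/6 mice in place of the Ighg2a of many other strains. Ighg2b (chr12:113302965-113307933, minus strand) had 5356, 396, 35, 1014, 176 and 3297 counts in Sham Gfp, 535 in Sham Mef2c 6, 3325 in SNI Gfp 4 and 2556 in SNI Gfp 6. Its other libraries held 0 to 24 counts. Ighg2c (chr12:113285325-113288932, minus strand) had 5299, 382, 181, 2664, 903 and 1198 counts in Sham Gfp, 2404 in Sham Mef2c 6, 2211 in SNI Gfp 4 and 2686 in SNI Gfp 6. Its other libraries held 0 to 13 counts. The balance of the pair differed between libraries. Per kilobase of exon, Ighg2b took 33.2% and Ighg2c 24.4% of the switched heavy chains in Sham Gfp 6, against 8.56% and 77.7% in Sham Mef2c 6. The labels do not give the strain of a library, so a difference of strain and this balance cannot be told apart. The coding exons of the pair are 94.2% identical over the CH2 domain, with a run of 78 identical bases, 87.6% over CH1, 81.0% over the hinge and 79.2% over CH3, so part of the reads can fit both genes. The hinge exons, the flexible joint between the antigen-binding arms and the stem, are shown because they tell the 2 genes apart. They come from GENCODE M21 on GRCm38 (Ighg2b chr12:113307261-113307326, Ighg2c chr12:113288263-113288325, minus strand), with capitals for bases that differ or have no partner.
Ighg2b: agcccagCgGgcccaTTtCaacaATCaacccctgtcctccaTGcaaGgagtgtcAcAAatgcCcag
Ighg2c: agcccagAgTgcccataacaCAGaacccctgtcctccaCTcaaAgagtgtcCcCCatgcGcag

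The other heavy chain constant genes were compared with these members per kilobase of exon, among the 5 switched classes Igha, Ighg1, Ighg2b, Ighg2c and Ighg3. Igha, the chain of IgA, took 39.2% to 75.9% of this sum in the 6 Sham Gfp libraries and 66.0% in SNI Gfp 6, where it led the classes. In Sham Mef2c 6, Ighg2c took 77.7% and Igha 6.49%. In SNI Gfp 4, Ighg2c took 39.5%, Ighg2b 29.4% and Igha 14.1%. The order of its gamma classes turned with the length used: Ighg2b led by raw counts, and per kilobase of gene span with 34.7% against 31.8% for Ighg2c. The other 8 libraries kept their leading class under all 3 measures. Ighg1 stood out in SNI Gfp 4, where it took 13.8% per kilobase of exon against 1.31% or less in each of the other 8 libraries shown in the plot of switched classes. Igha reached 25244 counts in Sham Gfp 1 and 17796 in SNI Gfp 6. It had 0 to 86 counts in the first 5 libraries labelled Sham Mef2c and 404 in Sham Mef2c 6. Ighe, the chain of IgE, had at most 6 counts in any library.

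**Figure D2:**
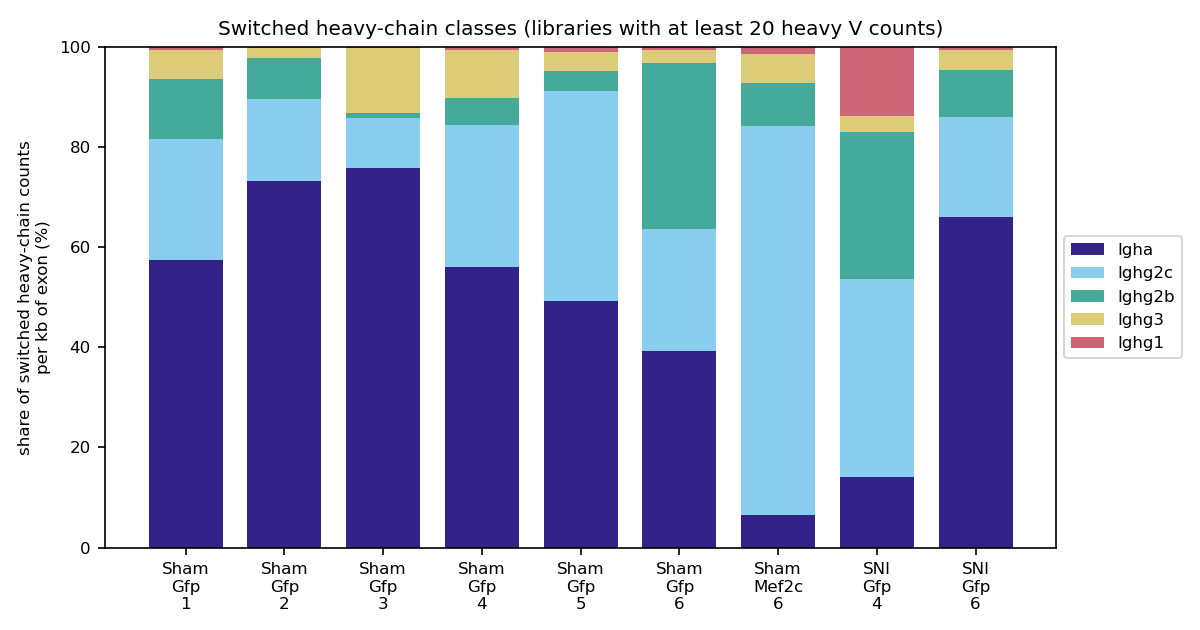
Share of each switched heavy chain class among the counts per kilobase of exon of Igha, Ighg2c, Ighg2b, Ighg3 and Ighg1, in percent, for the 9 libraries with at least 20 heavy variable-segment counts. Igha leads in the 6 Sham Gfp libraries and SNI Gfp 6, and Ighg2c leads in Sham Mef2c 6 (77.7%) and, per kilobase of exon but not of gene span, in SNI Gfp 4 (39.5%).

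Jchain (chr5:88519809-88527891, minus strand) had 6421, 905, 713, 3315, 631 and 1218 counts in Sham Gfp, 892 in Sham Mef2c 6, 866 in SNI Gfp 4 and 5607 in SNI Gfp 6. Every other library held 17 to 50 counts. Set against kappa, the lowest values were 26.7 Jchain counts per 100 Igkc counts in SNI Gfp 4 and 28.5 in Sham Mef2c 6, the 2 libraries with the lowest Igha shares, 14.1% and 6.49%. The 6 Sham Gfp libraries had 44.1 to 57.5 and SNI Gfp 6 had 64.5. Among the Sham Gfp libraries the lowest values were 44.1 in library 5 and 44.9 in library 6, which also had the lowest Igha shares of that group, 49.3% and 39.2%. Over the 24 libraries, with group means subtracted, log2 CPM of Jchain followed Igkc with Pearson's r = 0.93. The 36 pairs of members had r between 0.56 and 0.97, with a median of 0.77, and these values share library, depth and the few libraries that stand high. Outside the immunoglobulin genes, the genes most like Igkc by this r were Jchain, 2010309G21Rik (r = 0.87), Mzb1 (0.81), Naip5 (0.80) and Cxcl9 (0.80). 2010309G21Rik spans Iglc1 and Iglc3 and shares their reads, Naip5 is a sensor of bacterial flagellin, and Cxcl9 is an interferon-gamma-induced chemokine that attracts T cells.

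Promoter sequences, from 250 bases before to 50 after the start site in RefSeq on GRCm38.p6, were matched for Jchain and Cd79a, 2 of the 9 members. They are shown because no other member had a promoter in the reference used. Both strands were searched for the octamer ATGCAAAT bound by POU factors of B cells, for CAAGGGA, part of the consensus of the B cell factor EBF1, for the E-box CAGNTG and for the MEF2 consensus by its name. Neither promoter held the octamer or the MEF2 consensus, which 1.74% and 3.19% of 32851 promoters hold. The promoter of Jchain (chr5:88527848-88528147, minus strand) held CAGNTG at 2 places, and 51.4% of promoters hold it. That of Cd79a (chr7:24897247-24897546, plus strand) held it at 1 place and CAAGGGA, found in 5.06% of promoters, at 1 place. Capitals mark these matches, which describe letters only and are not binding sites.
Jchain: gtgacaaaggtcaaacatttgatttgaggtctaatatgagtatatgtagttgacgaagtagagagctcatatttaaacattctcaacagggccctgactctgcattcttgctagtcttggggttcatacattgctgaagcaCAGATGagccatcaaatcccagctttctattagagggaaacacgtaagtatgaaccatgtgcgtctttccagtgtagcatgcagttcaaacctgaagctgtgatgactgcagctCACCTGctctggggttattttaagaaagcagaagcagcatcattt
Cd79a: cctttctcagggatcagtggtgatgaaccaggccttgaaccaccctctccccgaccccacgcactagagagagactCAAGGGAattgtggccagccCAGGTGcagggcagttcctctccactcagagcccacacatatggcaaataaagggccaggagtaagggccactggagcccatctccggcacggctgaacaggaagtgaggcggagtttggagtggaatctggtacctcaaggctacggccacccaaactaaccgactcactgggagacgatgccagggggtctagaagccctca

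Cd79a and Cd79b, the receptor signalling pair, had few counts in every library. Cd79a (chr7:24897381-24902197, plus strand) had 122, 48, 14, 54, 47 and 99 counts in Sham Gfp, 70 in SNI Gfp 4 and 98 in SNI Gfp 6. The libraries labelled Sham Mef2c held 12 to 16 counts, the other 4 SNI Gfp libraries 3 to 22 and SNI Mef2c 5 to 17. Cd79b (chr11:106311341-106314762, minus strand) had 72, 64, 13, 25, 60 and 58 counts in Sham Gfp, 48 in SNI Gfp 4 and 61 in SNI Gfp 6, and 2 to 13 counts elsewhere. Sham Mef2c 6 had 15 Cd79a and 13 Cd79b counts. In CPM it was the highest of its group for both, at 0.540 and 0.468, and lay above Sham Gfp 3 (0.423 and 0.393) but below the other 5 Sham Gfp libraries, while its Igkc was higher than in 4 of the 6.

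Mzb1 encodes a chaperone of the endoplasmic reticulum that helps antibody assembly and secretion in marginal zone B cells and plasma cells. It had 110, 21, 12, 55, 20 and 30 counts in Sham Gfp, 21 in Sham Mef2c 6, 35 in SNI Gfp 4 and 73 in SNI Gfp 6, and 0 to 5 counts in the other libraries. Unlike Cd79a and Ighm, it stood high in Sham Mef2c 6. Mzb1 overlaps SPATA24, which has 7913 counts against its 421, so its counts are uncertain.

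The effect of the Mef2c vector without nerve injury was compared between the libraries labelled Sham Mef2c and Sham Gfp. Of the 9 members, 5 were lower in the libraries labelled Sham Mef2c, of which 2, 4 and 5 had no more Mef2c than the highest Sham Gfp library: Ighm, Iglc2, Cd79a, Cd79b and Mzb1. The test was edgeR's quasi-likelihood test on 23738 genes with Benjamini-Hochberg adjustment and a threshold of 0.05. None of the 9 members was higher. Over all genes, 9.41% passed and 7.93% passed as lower. The members' median log2 fold change was -2.80, against 0.02 over all genes tested.

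Cd79b averaged 0.208 CPM (SD 0.154, n = 6) in Sham Mef2c and 1.51 CPM (SD 0.736, n = 6) in Sham Gfp. Its log2 fold change was -2.86 (SE 0.67, adjusted p = 0.00549 with edgeR), and 5 of 6 Sham Mef2c libraries lay below every Sham Gfp library. Cd79a averaged 0.445 CPM (SD 0.0597, n = 6) against 1.98 CPM (SD 1.21, n = 6), with a log2 difference of -2.15 (SE 0.54, edgeR adjusted p = 0.0104). The groups overlapped for Cd79a, with 3 of 6 libraries below all of Sham Gfp, whose library 3 had 0.423 CPM. Ighm fell by 2.57 on the log2 scale (SE 0.68, edgeR adjusted p = 0.0160), and its groups did not overlap. Iglc2 fell by 3.83 (SE 1.12, edgeR adjusted p = 0.0308) and Mzb1 fell by 2.63 (SE 0.80, edgeR adjusted p = 0.0396), each with 5 of 6 libraries below every Sham Gfp library. Few libraries outside Sham Gfp held enough counts of Iglc2, Mzb1, Cd79b or Ighg2c for the count filter, so Sham Gfp carried them through it. With no count filter Cd79b still passed, whereas the edgeR adjusted p was 0.0671 for Iglc2 and 0.0763 for Mzb1. Libraries lying below every Sham Gfp library were not counted over all genes.

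The other 4 members, Igkc, Ighg2b, Ighg2c and Jchain, did not pass. Igkc averaged 19.4 CPM (SD 45.8, n = 6) in Sham Mef2c and 134 CPM (SD 135, n = 6) in Sham Gfp, with a log2 difference of -2.80 (SE 1.51, edgeR adjusted p = 0.299). Ighg2b had a log2 fold change of -4.05 (SE 1.55, edgeR adjusted p = 0.117), Ighg2c of -1.97 (SE 1.50, edgeR adjusted p = 0.494) and Jchain of -3.53 (SE 1.24, edgeR adjusted p = 0.0810). For each of these 4 genes, 5 of 6 Sham Mef2c libraries lay below every Sham Gfp library, and Sham Mef2c 6 lay within the range of Sham Gfp. How common such separation was over all genes was not counted. Without Sham Mef2c 6, all 9 members were lower, where 9.00% of genes passed, and the log2 fold change of Igkc was -7.66 (edgeR adjusted p = 0.00633). Without Sham Gfp 1, Sham Gfp 4 or any 1 of Sham Mef2c 1 to 5, only Ighm, Cd79a and Cd79b passed. Without Sham Mef2c 2 and 5, whose Mef2c level went against their label, 0 of 9 passed and 6.88% of genes did, with edgeR adjusted p between 0.0529 for Cd79b and 0.736 for Ighg2c. The log2 fold changes then were -2.51 for Ighm, -2.51 for Cd79b and -2.07 for Cd79a, close to those with all libraries. DESeq2 passed 5 of 9 (10.9% of genes), with Jchain in place of Iglc2, and limma-voom with quality weights 8 of 9 (18.7% of genes), all but Ighg2b.

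**Figure D3:**
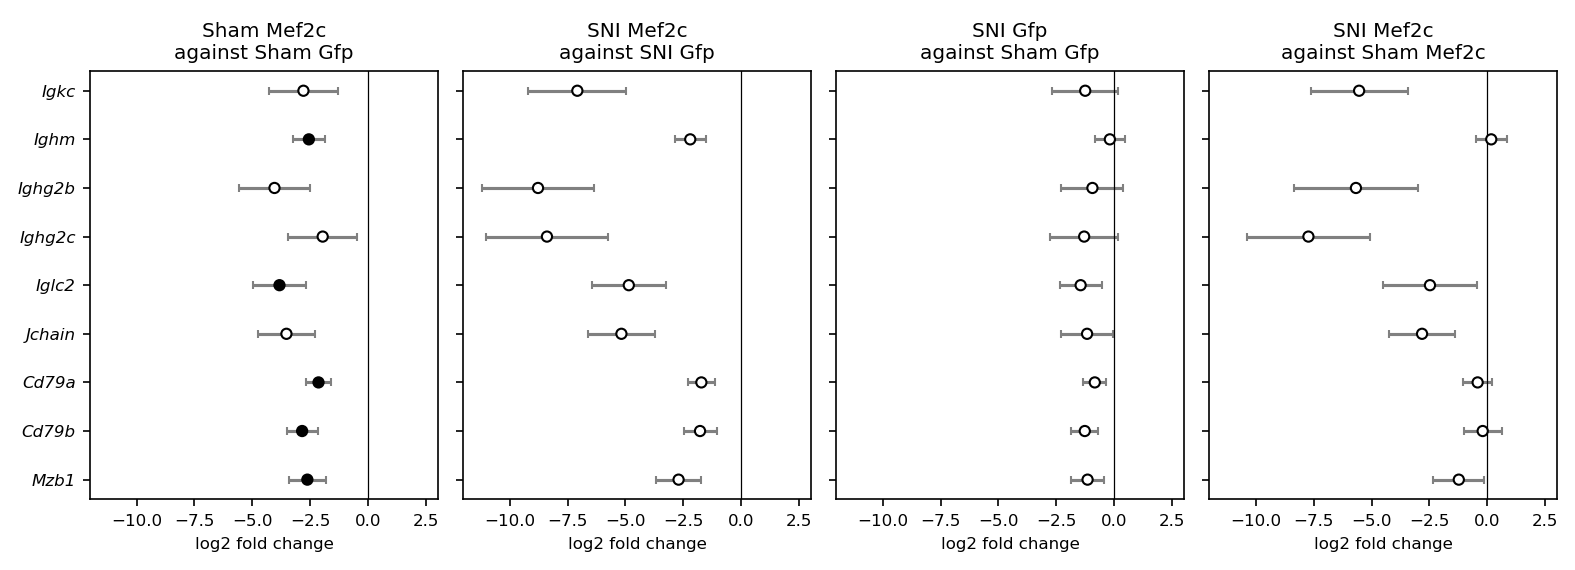
Log2 fold change of each member in 4 comparisons, with bars of 1 SE from edgeR. Filled circles passed the adjusted threshold of 0.05: Ighm, Iglc2, Cd79a, Cd79b and Mzb1 in Sham Mef2c against Sham Gfp, and none in the other 3 comparisons.

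After nerve injury, the 2 vectors were compared between SNI Mef2c and SNI Gfp. With edgeR, 0 of 9 members passed, and 0.00421% of genes did, while all 9 had an unadjusted p under 0.05. Over all genes, 3383 of 23738 had such an unadjusted p. DESeq2 passed 5 of 9, Igkc, Ighm, Ighg2b, Ighg2c and Jchain, all lower in SNI Mef2c (1.82% of genes), and limma-voom passed 0. Igkc averaged 0.428 CPM (SD 0.596, n = 6) in SNI Mef2c and 55.6 CPM (SD 98.5, n = 6) in SNI Gfp, with a log2 difference of -7.08 (SE 2.11, edgeR adjusted p = 0.154). Jchain had a log2 fold change of -5.17 (SE 1.45, edgeR adjusted p = 0.135). The groups overlapped for both genes, since SNI Gfp 1 to 3 and 5 held as few counts as SNI Mef2c libraries.

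The effect of nerve injury with the Gfp vector was compared between SNI Gfp and Sham Gfp. With edgeR, 0 of 9 members passed and 0% of genes did. Of the members only Cd79b had an unadjusted p under 0.05 (log2 fold change -1.28, SE 0.58, edgeR adjusted p = 0.353). Over all genes, 2928 of 23738 did. Igkc had a log2 fold change of -1.26 (SE 1.42, edgeR adjusted p = 0.819) and Ighm of -0.20 (SE 0.63, edgeR adjusted p = 0.951). For 8 of 9 members, 4 of 6 SNI Gfp libraries, always 1 to 3 and 5, lay below every Sham Gfp library, and for Cd79a 2 of 6 did. How often this held over all genes was not counted. For Ighm, SNI Gfp 6 lay above every Sham Gfp library. DESeq2 passed 0 of 9, and limma-voom with quality weights passed 8 of 9 as lower (11.8% of genes), all but Ighg2b. Without SNI Gfp 6, edgeR passed 1 of 9, Ighm, with a log2 fold change of -2.13, where 5.83% of genes passed.

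Nerve injury with the Mef2c vector was compared between SNI Mef2c and the libraries labelled Sham Mef2c. With edgeR 0 of 9 members passed, as did 0% of genes, and 3 members had an unadjusted p under 0.05, Igkc, Ighg2b and Ighg2c. Over all genes, 3816 of 23738 had such an unadjusted p. DESeq2 and limma-voom passed 0. Igkc had a log2 fold change of -5.54 (SE 2.09, edgeR adjusted p = 0.230), which rests on Sham Mef2c 6, since the other 5 libraries labelled Sham Mef2c had 1 to 94 counts and SNI Mef2c 1 to 47. The interaction, which asks whether the vector's effect differed between the surgeries, passed 0 of 9 members with edgeR and 0% of genes. No member had an unadjusted p under 0.05 in it, while 3529 of 23738 genes did. For the interaction DESeq2 passed 0 of 9, and limma-voom passed 1 of 9, Ighm, where 17.4% of genes passed. Without SNI Gfp 6, edgeR passed 1 as well, Ighm, where 1.13% of genes passed. A p that misses the threshold does not show that the effects were equal.

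The variable segments, which lie upstream of the constant genes and are joined to them in each B cell clone, describe how varied the antibody RNA of a library was. Heavy chain segments had at least 20 counts in 9 libraries, the same ones in which Igkc stood high. In Sham Mef2c 6, Ighv1-67 took 1307 of 1385 heavy segment counts, 94.4% (95% Wilson interval 93.0% to 95.5%). In the same library Igkv6-13 took 2110 of 2371 kappa segment counts, 89.0% (95% Wilson interval 87.7% to 90.2%). In the other 8 libraries the leading heavy segment took 22.2% to 48.5% and the leading kappa segment 15.6% to 64.3%. Near-identical variable segments can share reads, so these shares are uncertain. A difference of strain between libraries cannot be told apart from them either.

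**Figure D4:**
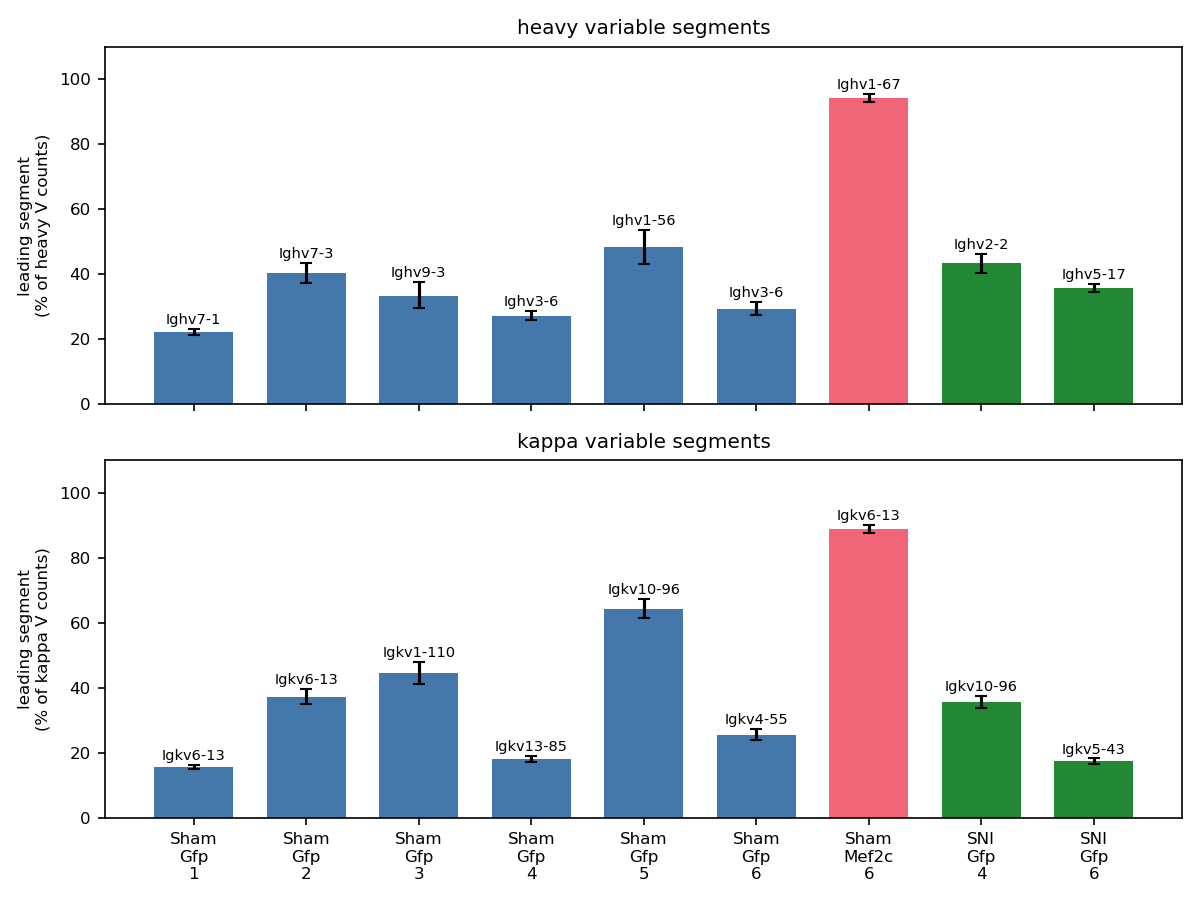
Share of the leading variable segment among heavy (top) and kappa (bottom) segment counts, in percent with 95% Wilson intervals for counting error, in the 9 libraries with at least 20 heavy segment counts. Sham Mef2c 6 stands apart at 94.4% and 89.0%, and among heavy segments Ighv3-6 alone leads in 2 libraries, whereas Igkv6-13 leads in 3 libraries and Igkv10-96 in 2.

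The leading heavy segments were Ighv7-1 in Sham Gfp 1, Ighv7-3 in 2, Ighv9-3 in 3, Ighv3-6 in 4 and 6, Ighv1-56 in 5, Ighv2-2 in SNI Gfp 4 and Ighv5-17 in SNI Gfp 6. Ighv3-6 was the 1 segment to lead in 2 libraries. The effective number of heavy segments, the inverse of the summed squared shares, was 1.12 in Sham Mef2c 6 and 3.83 to 8.12 in the other 8 libraries. For kappa it was 1.26 in Sham Mef2c 6 and 2.25 to 10.9 in the other 8. Ighv1-67 was also the second heavy segment of Sham Gfp 1, with 1552 counts (19.4%), and Igkv6-13 led the kappa segments of Sham Gfp 1 and 2. The reference sequences of the pair that fills Sham Mef2c 6 are shown in full, from GENCODE M21 on GRCm38, in lower case since no part is singled out. Ighv1-67 lies at chr12:115603940-115604233 and Igkv6-13 at chr6:70457501-70457787, both on the minus strand. The rearranged and mutated forms in these mice were not read.
Ighv1-67: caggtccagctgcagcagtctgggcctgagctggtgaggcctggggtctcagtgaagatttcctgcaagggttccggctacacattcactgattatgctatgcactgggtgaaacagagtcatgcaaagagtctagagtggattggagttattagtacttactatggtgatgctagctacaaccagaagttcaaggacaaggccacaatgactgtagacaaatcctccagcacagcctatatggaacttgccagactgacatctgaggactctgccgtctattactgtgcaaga
Igkv6-13: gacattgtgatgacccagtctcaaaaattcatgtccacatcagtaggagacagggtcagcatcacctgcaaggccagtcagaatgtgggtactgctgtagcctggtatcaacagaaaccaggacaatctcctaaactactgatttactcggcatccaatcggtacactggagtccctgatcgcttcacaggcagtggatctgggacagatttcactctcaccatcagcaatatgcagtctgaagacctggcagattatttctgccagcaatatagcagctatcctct

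Genes of the same pathways were counted in lists, in Sham Mef2c against Sham Gfp with edgeR's adjusted p. In that comparison 7.93% of the 23738 genes tested passed as lower. The lists were chosen with earlier results of these data known. Of 7 other constant genes 6 were tested and 3 were lower: Ighd (log2 fold change -0.95), Igha (-6.52) and Iglc3 (-4.36). B cell surface and receptor signalling genes were lower for 12 of 17, with a median of -1.51. Examples are the tetraspanin Cd37 (-1.74), the receptor kinase Btk (-1.73) and Tnfrsf13b, the receptor TACI (-1.51), all with edgeR adjusted p at or below 0.000266. B cell transcription factors were lower for 6 of 9, among them the octamer coactivator Pou2af1 (-4.92), Spib (-3.71), Ikzf3 (-2.94) and Ikzf1 (-1.88). Of 11 plasma cell genes tested, 4 were lower: Slamf7 (-3.96), Irf4 (-2.59), Tent5c (-2.32) and Prdm1 (-1.65). Xbp1, the factor of the secretory programme, had a log2 fold change of -0.05 (edgeR adjusted p = 0.654), and its counts of 1532 to 2550 per library overlapped in all groups. Of the 112 genes tested in the 14 lists, 0 passed edgeR's threshold in the other 4 comparisons. An unadjusted p under 0.05 was reached by 56 of them in SNI Mef2c against SNI Gfp, 47 in SNI Gfp against Sham Gfp, 14 in SNI Mef2c against Sham Mef2c and 35 in the interaction. Over all 23738 genes the numbers were 3383, 2928, 3816 and 3529 in the same order. Other tools were not run on the lists.

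Antibody receptors were lower for 7 of 8 tested, with the largest fold change for Fcgr4 (-5.56), an activating receptor for IgG. Fcgr1 (-2.70), Trim21 (-2.96), which binds antibody inside cells, and the inhibitory Fcgr2b (-2.31) were lower as well. Attractants and survival factors were lower for 4 of 6 tested, Cxcl9 (-7.45), Cxcl10 (-7.06), Cxcl13 (-5.65), the chemokine that draws B cells, and Tnfsf13b (-1.43), the survival factor BAFF. T cell markers were lower for 13 of 14 tested, with a median of -6.03. Outside Sham Gfp, Cd3e, Cd3g, Cd8a, Nkg7, Cxcl9, Fcgr4, Spib and Pou2af1 held more than 13 counts only in SNI Gfp 4 and 6. Sham Gfp, the group where they are high, thus carried such genes through the count filter, and the list counts and medians lean on that. Microglia markers were lower for 5 of 7 and plasmacytoid dendritic cell markers for 3 of 5. None of the blood, meningeal fibroblast, choroid plexus, cortical or striatal markers tested passed (0 of 4, 6, 4, 6 and 9), with 1 of these genes, a blood marker, at an unadjusted p under 0.05. Over all genes, 5025 of 23738 had such an unadjusted p, and 7.93% passed edgeR's adjusted threshold as lower. The T cell and microglia values moved with the members, and their part in the members' result was not tested.

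The summed levels of 3 lists were set beside the members library by library. T cell markers summed to 30.4 to 113.6 CPM in Sham Gfp, 78.7 CPM in SNI Gfp 4 and 75.9 CPM in SNI Gfp 6, and to 29.5 CPM in Sham Mef2c 6. The other libraries labelled Sham Mef2c had at most 33.4 CPM and SNI Mef2c had 31.4 to 41.1 CPM. Cd4 had the most counts of this list in every library, 271 to 1472, and so weighs most in these sums. Sham Gfp 3, with the lowest sum of its group, had 43 Cd3g and 55 Cd8a counts, against 0 to 1 and 0 to 3 in SNI Mef2c. All 15 T cell markers had a count in each Sham Gfp library and in SNI Gfp 4 and 6. In Sham Mef2c 6, 6 of 15 were at 0, Cd3e and Cd8a among them, and 5 to 10 were at 0 in the group's other libraries. Sham Mef2c 6 had more counts than those libraries of Trbc2 (17 against 1 to 5), Trbc1 (5 against 0 to 2) and Cd8b1 (3 against 0 to 1). It had fewer of Cd2 (3 against 4 to 15) and Lck (113 against 132 to 158). B cell surface genes summed to 73.6 CPM in Sham Mef2c 6 and 100.8 to 155.9 CPM in Sham Gfp. Cd180 and Cd72 had the most counts of that list in every library, 617 and 606 in Sham Mef2c 6, and weigh most in its sums. Antibody receptors summed to 33.8 CPM in Sham Mef2c 6 and 73.6 to 195.2 CPM in Sham Gfp. Pou2af1 had 13 counts in Sham Mef2c 6 against 1 to 3 in the group's other libraries.

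**Figure D5:**
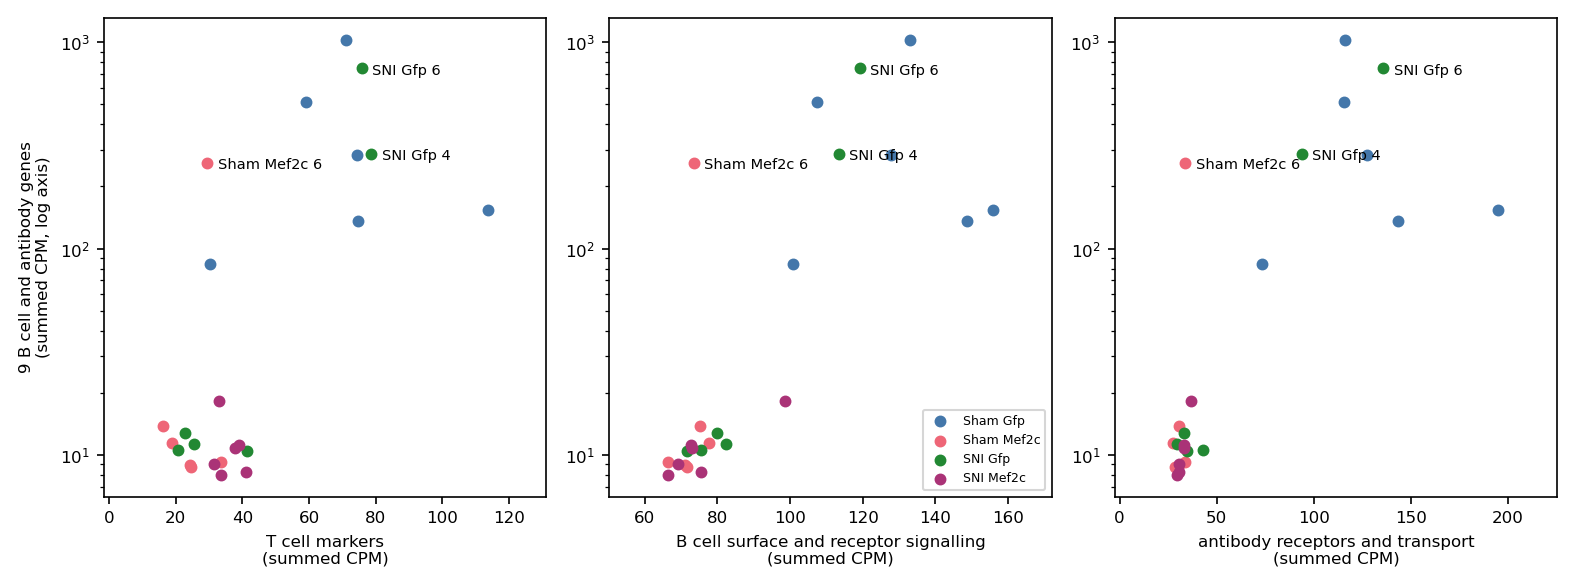
Summed level of the 9 B cell and antibody genes (CPM, log axis) against the summed level of T cell markers, B cell surface genes and antibody receptors (CPM), 1 point per library and 1 colour per group. Sham Mef2c 6 has 261 CPM of the 9 genes with list sums like those of the low libraries, whereas SNI Gfp 4 and 6 lie with Sham Gfp. Cd4 weighs most in the T cell sums, and Cd180 and Cd72 in the B cell surface sums.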

How the data were processed

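RNA was sequenced from 24 libraries of mouse nucleus accumbens. The authors deposited raw counts per gene and FPKM. Per the submitters' processing notes, the genome was mm10 and the counter featureCounts; aligner not given in the sources used here. Deposited FPKM served to check the counting: 100% of values equalled the count over the library total and over the gene span, introns included, within 1e-06 (relative). Symbols came from GENCODE M21, which 54349 IDs matched with their version and 55141 without.

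Counts were tested with edgeR 4.0.16 in R 4.3.3 (filterByExpr, TMM, robust quasi-likelihood, 4 groups, 20 residual degrees of freedom), giving 23738 genes. Two-sided p-values were adjusted by Benjamini and Hochberg over all genes tested. The test was checked on simulated data. DESeq2 1.42.0 (after the same filter), limma-voom 3.58.1 and other scalings, filters and sample sets were alternatives. Over 60 pairs of libraries within groups, chi-square over its degrees of freedom was at least 3.22, so no pair within a group was a copy. Total counts of 25477019 to 36570108 set the precision, and intervals cover counting error only.

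The members and lists were chosen with earlier results of these data known. Named beside the members were up to 4 genes per list by smallest p in Sham Mef2c against Sham Gfp, all other constant-region genes, the leading variable segments of libraries with at least 20 segment counts, the 5 genes most like Igkc and Mef2c. Others (Cd8a, Cd8b1, Cd4, Cd2, Cd3g, Lck, Trbc1, Trbc2, Cd72, Cd180, Fcgr4, Xbp1) were named after their values were seen.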

Additional observations from a re-analysis of the deposited data

Results flagged for a closer look

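A single library stood apart from the other 5 of its group in 28 of 66 gene-and-group sets of CPM values, by Dixon's ratio above 0.625, for the 9 members, the 7 other constant-region genes and Mef2c. Chance gives about 1 in 20 for normally distributed values. These values are skewed and tied at 0, and the genes share their libraries, so that rate does not apply here. Sham Mef2c 6 was the high library 11 times: Igkc 112.8 CPM, Ighg2b 19.28, Ighg2c 86.62, Iglc2 0.7206, Jchain 32.14, Mzb1 0.7567, Ighg1 2.846, Ighg3 12.54, Igha 14.56, Iglc1 0.2162 and Iglc3 0.1441 CPM. It was not the outlying library for Ighm, Cd79a or Cd79b. In that group Sham Mef2c 4 stood apart for Ighm, at 9.998 CPM.

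SNI Gfp 6 was the high library 7 times: Igkc 243.4 CPM, Ighm 191.6, Jchain 157.1, Ighg3 27.70, Igha 498.5, Ighe 0.05602 and Iglc1 1.429 CPM. SNI Gfp 4 stood apart for Ighg1, at 41.07 CPM. SNI Mef2c 1 was the high library of its group 7 times, at levels below every Sham Gfp library except for Cd79b: Igkc 1.568 CPM, Ighg2c 0.2668, Iglc2 0.1001, Jchain 1.368, Cd79b 0.4003, Ighg1 0.1001 and Ighg3 0.1668 CPM. SNI Mef2c 3 stood apart for Iglc3, at 0.02807 CPM, which is 1 count. In Sham Gfp no library stood apart by this measure for any of these genes.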

How the results depend on the processing

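In Sham Mef2c against Sham Gfp, 5 of 9 members passed with median-of-ratios scaling, library size alone, DESeq2 or the compared groups alone as well. Of all genes, 9.5%, 9.27%, 10.9% and 8.96% passed in the same order. The number was 3 with a filter of at least 1 CPM in 6 libraries (9.84% of genes) and 3 with no count filter (4.79%). It was 8 with limma-voom (18.7%) and 0 without Sham Mef2c libraries 2 and 5 (6.88%). Leaving out 1 library at a time gave 3 to 9, where 7.25% to 15.1% of genes passed. With the replicate number as a block it was 9 (8.15% of genes). The numbers do not pair the libraries: of 36 same-numbered pairs across groups, 9 correlated above 0.1, and 2 of 24 libraries correlated best with their own number. Every member kept its lower direction there under all alternatives, though Iglc2 and Mzb1 did not pass the 1 CPM filter. In SNI Mef2c against SNI Gfp, DESeq2 passed 5 (1.82% of genes) and all other settings, the replicate block included, 0. In SNI Gfp against Sham Gfp, limma-voom passed 8 (11.8% of genes), leaving out single libraries 0 to 1 and the other settings 0. The 1 came without SNI Gfp 6 (5.83% of genes). In SNI Mef2c against Sham Mef2c all settings passed 0. In the interaction limma-voom passed 1 (17.4% of genes), leaving out single libraries 0 to 1 and the others 0. Here too the 1 came without SNI Gfp 6 (1.13% of genes).

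The interaction changed sign with limma-voom for Igkc (4.69), Ighg2b (4.50), Ighg2c (6.40), Iglc2 (3.67), Jchain (3.58) and Mzb1 (2.22), and with the replicate block for Igkc (0.51), Iglc2 (0.16), Jchain (1.95) and Mzb1 (0.56); the cause was not tested. Leaving out single libraries turned the interaction for Igkc (-5.40 to 0.59), Ighm (-0.0024 to 2.29), Ighg2b (-5.60 to 0.39), Ighg2c (-7.63 to 0.88), Iglc2 (-2.32 to 0.98), Jchain (-2.34 to 1.02) and Mzb1 (-0.67 to 0.95). It also turned Ighm in SNI Gfp against Sham Gfp (-2.13 to 0.16), and Ighm (-0.0026 to 0.24) and Cd79b (-0.60 to 0.17) in SNI Mef2c against Sham Mef2c. At 13 counts or fewer in at least 15 of 24 libraries each, Iglc2, Mzb1 and Cd79b are limited by depth. The compared-groups-alone fit was not run for the interaction.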
